A study of Mus musculus with 12 samples.

Results

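The genes described are the core of the TGF-β receptor and SMAD pathway in progenitor CD8+ T cells from the pancreatic lymph node (pLN). They are the ligand *Tgfb1*, the receptors *Tgfbr1*, *Tgfbr2* and *Tgfbr3*, the signal transducers *Smad2*, *Smad3* and *Smad4*, the inhibitory *Smad7* and the co-repressors *Ski* and *Skil*. They were chosen by name and make up 10 of the 25860 genes listed in the RNA-seq table. All 10 passed the filter on low values. In the ATAC-seq table, 45 of the 23932 listed peaks carry the name of one of these genes.

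The study asked how UTX (*Kdm6a*), an X-linked histone H3K27 demethylase, shapes gene expression and chromatin accessibility in T_prog_ cells, the stem-like CD8+ T cells that feed the autoimmune attack on pancreatic β cells. *NOD-TCR 8.3 WT* mice were compared with *NOD-TCR 8.3 UTX TCD* mice, and each genotype gave 3 RNA-seq and 3 ATAC-seq libraries. Mice of both groups carry the NY8.3 T cell receptor transgene, which recognises the β cell antigen IGRP, on the diabetes-prone NOD background. UTX TCD mice have floxed alleles of UTX and an Lck-driven Cre, which is active in T cells from the thymus onwards, so that *Kdm6a* is deleted in CD4+ and CD8+ T cells alike. In the parent NOD line the WT controls were Cre-negative littermates that carry the floxed alleles as well, so that Cre sets the groups apart there, and the floxed genotype of the *NOD-TCR 8.3 WT* mice was not given separately. The floxed and Cre alleles were backcrossed from C57BL/6 mice. The mice were female, and their age for these assays was not given in the sources used here. Sorted cells were Ly108+, with CXCR6 as the negative marker in the sample descriptions and CD39 in the study's methods. Whether each RNA-seq library came from 1 animal or from pooled animals is not known here, so SEs and p-values measure the spread between the 3 libraries of a genotype.

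TGF-β is released from cells in a latent form and, once activated, is bound by the type II receptor TGFBR2, which recruits and phosphorylates the type I receptor TGFBR1. TGFBR1 phosphorylates SMAD2 and SMAD3, which join SMAD4 and enter the nucleus, while SMAD7 blocks the receptor and SKI and SKIL hold SMAD target genes silent. In T cells the pathway restrains effector differentiation and supports naive T cell survival and the tissue-resident programme.

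RNA-seq values were read counts per gene divided by a size factor per library, called normalized counts here. Counted reads per library were 146456724, 144503203 and 193568919 in WT 1, 2 and 3 and 61512402, 175462433 and 187275082 in UTX TCD 1, 2 and 3. UTX TCD 1 was the shallowest library, and even there the least covered of the 10 genes, *Tgfbr1*, had 3359 reads. *Kdm6a* itself had normalized counts of 28365, 28949 and 29172 in WT 1, 2 and 3 and of 24158.5, 24792 and 24579 in UTX TCD 1, 2 and 3. The 3 UTX TCD libraries lay below the 3 WT libraries. The log2 fold change was -0.23 ± 0.0373 (SE; limma, adjusted p = 0.00114). Reads were counted over the whole gene, and the deleted part was not counted apart, so this level does not measure how complete the deletion was.

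Fold changes are UTX TCD against WT on the log2(normalized count + 1) scale, and a gene is called changed when its Benjamini-Hochberg adjusted p from limma, over the 14459 genes tested, is under 0.05. Of the 10 genes, 6 changed, 2 higher and 4 lower, beside 40.7% of all genes tested, 20.2% higher and 20.5% lower. With the libraries scaled to the same sum, the changed genes overall split into 3793 higher and 2184 lower, against 2924 and 2963 here, and the split among the 10 genes was still 2 and 4. The same 6 genes had libraries that did not overlap between the genotypes, beside 51.9% of all genes tested. No change among the 10 was large. None exceeded an absolute log2 fold change of 0.5 with an adjusted p under 0.05 in limma, edgeR or DESeq2, beside 17.6% of all genes tested with limma, and the count was also 0 at an unadjusted p under 0.05. The largest absolute log2 fold change of any of them in any of 17 settings was 0.38. Their median log2 fold change was -0.03, and that of all genes was 0.00. In these bulk libraries, fewer cells of a type and less RNA per cell cannot be told apart.

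The ligand *Tgfb1* (chromosome 7, 25687002 to 25705077 in GRCm38), the main TGF-β of lymphocytes, had normalized counts of 18871, 17304 and 19674 in WT 1, 2 and 3. In UTX TCD 1, 2 and 3 they were 17829, 18556 and 18381, inside the WT range. The log2 fold change was -0.03 with a 95% interval from -0.15 to 0.09 (limma, adjusted p = 0.722).

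The receptors changed in different directions. *Tgfbr2* (chromosome 9, 116087695 to 116175363), the ligand-binding type II kinase, had normalized counts of 79341, 83676 and 83837 in WT 1, 2 and 3 and of 92857, 97595 and 88628 in UTX TCD 1, 2 and 3. Every UTX TCD library was above every WT library, and the gene rose by 13.0%, a log2 fold change of 0.18 ± 0.0502 (SE; limma, adjusted p = 0.0208). This call rested on few libraries: the adjusted p from limma was 0.0927 without WT 1, 0.0557 without UTX TCD 1 and 0.0933 without UTX TCD 2, and 0.0589 in limma without a mean-variance trend. Over all settings tried, the log2 fold change of *Tgfbr2* stayed between 0.14 and 0.24.

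*Tgfbr1* (chromosome 4, 47353222 to 47414926), the type I kinase, had normalized counts of 9122, 8991 and 9530 in WT 1, 2 and 3. In UTX TCD 1, 2 and 3 they were 7556, 8000 and 8020. All 3 UTX TCD libraries were below WT, a log2 fold change of -0.23 ± 0.0461 (SE; limma, adjusted p = 0.00395).

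*Tgfbr3* (chromosome 5, 107106567 to 107289629), betaglycan, is a co-receptor without kinase activity that presents ligand to TGFBR2. Its normalized counts were 18353, 17557 and 18868 in WT 1, 2 and 3 and 14729, 15689 and 15111 in UTX TCD 1, 2 and 3. The groups did not overlap, and the log2 fold change was -0.27 ± 0.045 (SE; limma, adjusted p = 0.00157). Neither *Tgfbr1* nor *Tgfbr3* lost its call in any of the 17 settings tried.

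Within each library, the normalized count of *Tgfbr2* was divided by that of *Tgfbr1*, a comparison chosen after the values were seen and given without a test. The ratio was 8.70, 9.31 and 8.80 in WT 1, 2 and 3. It was 12.3, 12.2 and 11.1 in UTX TCD 1, 2 and 3, above WT in each. The ratio of *Tgfbr2* to *Tgfbr3* was likewise 4.32, 4.77 and 4.44 in WT and 6.30, 6.22 and 5.87 in UTX TCD libraries.

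Of the receptor-regulated SMADs, *Smad3* was called and *Smad2* was not, and the difference between them was not tested. *Smad3* (chromosome 9, 63646766 to 63757994), which binds DNA directly, had normalized counts of 8469, 7853 and 8783 in WT 1, 2 and 3 and of 10667, 11085 and 9169 in UTX TCD 1, 2 and 3. UTX TCD 3 lay closest to WT, yet the groups did not overlap, and the log2 fold change was 0.30 ± 0.0747 (SE; limma, adjusted p = 0.0119). Limma without the trend gave an adjusted p of 0.0547, the only one of 17 settings in which *Smad3* was not called. *Smad2* (chromosome 18, 76241090 to 76311748) had normalized counts of 13168, 11872 and 13095 in WT and of 12689, 12515 and 12274 in UTX TCD libraries 1, 2 and 3. The UTX TCD values fell within the WT range (log2 fold change -0.02, 95% interval from -0.14 to 0.09; limma, adjusted p = 0.740). The ratio of *Smad3* to *Smad2* within a library, also formed after the values were seen, was 0.643, 0.661 and 0.671 in WT and 0.841, 0.886 and 0.747 in UTX TCD libraries.

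*Smad4* (chromosome 18, 73634790 to 73703791), the partner shared by the TGF-β and BMP branches, had normalized counts of 22103, 21202 and 22056 in WT 1, 2 and 3. UTX TCD libraries 1, 2 and 3 had 18501, 18978 and 18740. They agreed closely with each other and all lay below WT, a log2 fold change of -0.22 ± 0.0388 (SE; limma, adjusted p = 0.00213).

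*Smad7* (chromosome 18, 75367365 to 75395935) is induced by TGF-β and blocks its receptor. Its normalized counts were 19881, 19267 and 22006 in WT and 19138, 20948 and 20261 in UTX TCD libraries 1, 2 and 3. The groups overlapped, with a log2 fold change of -0.02 and a 95% interval from -0.15 to 0.11 (limma, adjusted p = 0.833).

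Of the co-repressors, *Ski* was called and *Skil* was not, again with no test between them. *Ski* (chromosome 4, 155154075 to 155222535) had normalized counts of 30437, 29082 and 29988 in WT 1, 2 and 3 and of 25832, 25792 and 23623 in UTX TCD 1, 2 and 3. All 3 UTX TCD libraries were below WT, with a log2 fold change of -0.25 ± 0.0474 (SE; limma, adjusted p = 0.00285). *Skil* (chromosome 3, 31095058 to 31122923), itself a TGF-β-induced gene, had normalized counts of 21411, 22110 and 22685 in WT and of 20532, 21930 and 23677 in UTX TCD libraries 1, 2 and 3. Its UTX TCD libraries spread on both sides of WT (log2 fold change 0.00, 95% interval from -0.13 to 0.12; limma, adjusted p = 0.966). *Smad4* and *Ski* kept their call in all 17 settings.

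**Figure D1:**
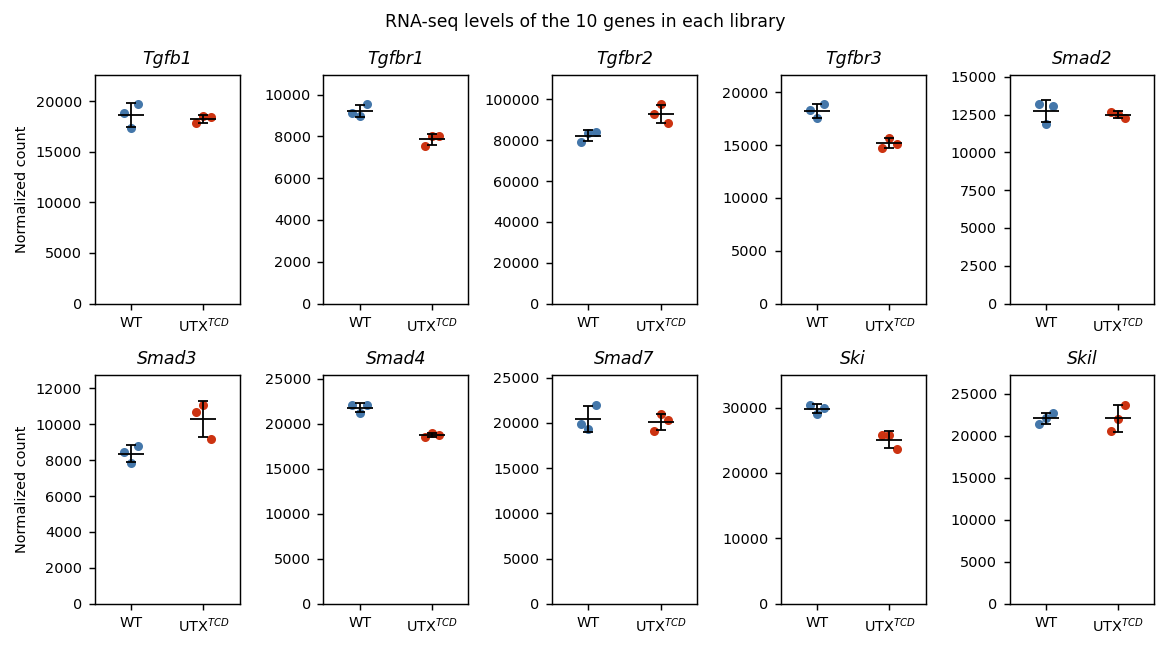
Normalized count (vertical axis, from 0) of each of the 10 genes in the 3 WT and 3 UTX TCD RNA-seq libraries, 1 point per library, with the mean and SD of each genotype in black. *Tgfbr1*, *Tgfbr3*, *Smad4* and *Ski* were lower in all 3 UTX TCD libraries, *Tgfbr2* and *Smad3* were higher in all 3, and the libraries of the other 4 genes overlapped.

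To compare levels between genes, normalized counts were divided by the total length of a gene's RefSeq exons. In WT cells *Tgfbr2* stood highest at 17190 ± 533 normalized counts per kb (SD, n = 3), followed by *Tgfb1* at 8559 ± 554 and *Ski* at 5459 ± 126. *Smad7* came next at 4590 ± 324 normalized counts per kb. *Skil*, *Tgfbr3* and *Smad4*, at 3123, 2998 and 2856 per kb, formed a run in which the libraries of neighbours overlapped. *Smad3*, *Tgfbr1* and *Smad2* were lowest, at 1644, 1530 and 1390 per kb, and the WT libraries of *Smad3* and *Tgfbr1* overlapped. In UTX TCD cells the first 8 places were held by the same genes, but *Ski* at 4590 per kb now overlapped *Smad7* at 4530. *Tgfbr1* at 1305 per kb fell to the last place below *Smad2* at 1366, and *Smad3* at 2025 stood clear of both.

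Beyond the core genes, 55 genes of the TGF-β superfamily pathway were listed by role, and 43 had enough reads to be tested. Of these, 22 changed, 13 higher and 9 lower, which is 51.2% beside 40.7% of all genes tested. Without WT 1, 15 changed, 8 higher and 7 lower, beside 4324 of all 14459 genes tested. With the libraries scaled to the same sum, 26 changed, 18 higher and 8 lower, beside 5977 of all 14459 genes tested, 3793 higher and 2184 lower. With an absolute log2 fold change over 0.5 as well, 13 changed, 8 higher and 5 lower, beside 17.6% of all genes.

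Among 8 further ligands, 5 were tested, 3 rose and 1 fell. For this and the following roles, the share changed is to be read beside the 40.7% of all genes tested, 20.2% higher and 20.5% lower, and for the ligands it was 80%. *Tgfb3* had normalized counts of 225, 168 and 256 in WT 1, 2 and 3 and of only 31.5, 32.8 and 28.0 in UTX TCD 1, 2 and 3. That is 6.75-fold lower with no overlap (log2 fold change -2.75 ± 0.221, SE; limma, adjusted p = 2.35e-05), although its level per kb, 63.9 in WT, was far under the 8559 of *Tgfb1*. *Gdf11*, the most abundant of these ligands and a member of the activin branch, rose from 1040, 933 and 1018 to 1599, 1740 and 1410 normalized counts. *Bmp7* rose from 71.3, 104 and 70.9 to 124, 160 and 247 (log2 fold change 1.06, limma adjusted p = 0.0141), but without WT 1 its adjusted p from limma was 0.0512. *Inha*, the inhibin α subunit, rose from 85.2, 81.0 and 86.2 to 162, 126 and 166. *Bmp2* had no read in any library, and *Tgfb2* and *Bmp4* were too low to be tested.

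In the group that stores and releases latent ligand, 5 of 10 genes were tested and 1 changed, or 20%. *Ltbp4*, which tethers latent TGF-β to the matrix, rose from 15.9, 6.91 and 9.91 to 76.5, 88.1 and 28.8 normalized counts (log2 fold change 2.38 ± 0.478, SE; limma, adjusted p = 0.00396). Its level was low in both genotypes, and UTX TCD 3 lay well under the other UTX TCD libraries. *Nrros*, the milieu molecule that holds latent TGF-β on leukocytes, was the most abundant of this group, at 10656, 9687 and 11287 in WT and 10934, 11284 and 11884 in UTX TCD libraries. Its groups overlapped (limma, adjusted p = 0.184), and with the libraries scaled to the same sum the adjusted p from limma was 0.0357.

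Of 11 other receptors of the superfamily, 9 were tested, 4 rose and 3 fell, which is 77.8% beside 40.7% of all genes. The BMP type I receptor *Acvr1* rose from 87.2, 75.0 and 107 to 322, 336 and 259 normalized counts (log2 fold change 1.76 ± 0.187, SE; limma, adjusted p = 0.000114). *Bmpr1a*, another BMP type I receptor, rose from 433, 307 and 418 to 1289, 1283 and 826 (log2 fold change 1.54 ± 0.195, SE; limma, adjusted p = 0.000319). Their type II partner *Bmpr2* rose from 3316, 3547 and 3343 to 6145, 6071 and 5597, a 1.74-fold change with little spread (limma, adjusted p = 1.07e-05). All 3 of these BMP receptor genes were higher in each UTX TCD library than in any WT library, and each was called in all 17 settings. The fourth gene that rose was the activin type II receptor *Acvr2a*, named after its values were seen (log2 fold change 0.34, limma adjusted p = 0.0377). Its adjusted p from limma was 0.0817 without the trend, 0.127 without WT 1, 0.116 without WT 3, 0.0985 without UTX TCD 2 and 0.103 without UTX TCD 3.

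Falling genes in this group included the TGF-β co-receptor endoglin. *Eng* had normalized counts of 5777, 4925 and 6011 in WT 1, 2 and 3 and of 2827, 3171 and 2265 in UTX TCD 1, 2 and 3, 2.03-fold lower with no overlap (limma, adjusted p = 0.000209). *Acvrl1*, the type I receptor that pairs with endoglin in endothelium, fell from 1845, 1444 and 1740 to 1237, 1256 and 843 (log2 fold change -0.61, limma adjusted p = 0.0140). The adjusted p of *Acvrl1* was 0.0541 from limma without WT 1 and 0.0582 without the trend. *Bambi*, a decoy receptor, fell from 72.3, 64.2 and 81.6 to 31.5, 26.4 and 36.9 (log2 fold change -1.18, limma adjusted p = 0.00455). *Acvr1b*, the activin type I receptor, had the highest mean normalized count of the group. It did not pass the test (log2 fold change -0.17, limma adjusted p = 0.0934), although without WT 2 its adjusted p from limma was 0.0105. Per kb of exon, *Eng* was higher than *Acvr1b* in WT, at 1560 against 1491 with overlapping libraries. In UTX TCD cells *Eng* was lower, at 771 against 1321 per kb.

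Of 4 other SMADs, 2 were tested and neither was called. *Smad5*, a SMAD of the BMP branch and the most abundant of the 4, had 13322, 13003 and 13846 normalized counts in WT and 12459, 12509 and 12708 in UTX TCD libraries, below WT in each, but missed the threshold (limma, adjusted p = 0.105). *Smad1*, of the same branch and named after its values were seen, lay the other way, with 3014, 3216 and 3114 in WT and 3232, 3516 and 3611 in UTX TCD libraries, above WT in each (log2 fold change 0.15, limma adjusted p = 0.0802). Its adjusted p from limma was 0.0248 with the libraries scaled to the same sum and 0.0439 without UTX TCD 1. *Smad9* and *Smad6* were too low to be tested, with at most 4.80 normalized counts in any library, so a difference was not detectable at this depth.

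Among 8 SMAD anchors, cofactors and other co-repressors, 2 rose and 3 fell, which is 62.5%. *Ldlrad4*, a TGF-β-induced inhibitor of SMAD2 and SMAD3 activation, fell from 2674, 2761 and 2665 to 1813, 1918 and 1999 normalized counts (log2 fold change -0.50 ± 0.0611, SE; limma, adjusted p = 0.000254). *Zfyve9*, which presents SMADs to the receptor, went from 7.92, 19.8 and 6.10 to 31.5, 24.8 and 22.1 (limma, adjusted p = 0.0479). That call was lost in 11 of 16 settings, among them the removal of any library but WT 2, with adjusted p from limma of 0.138 without WT 1, 0.142 without WT 3, 0.126 without UTX TCD 1, 0.106 without UTX TCD 2 and 0.0678 without UTX TCD 3. *Strap*, which stabilises the SMAD7 block of the receptor, was the most abundant of the group and fell from 14914, 15550 and 16290 to 13123, 13593 and 14065 (limma, adjusted p = 0.0103). The remaining gene that fell was *Fkbp1a*, named after its values were seen (log2 fold change -0.28, limma adjusted p = 0.000698). It kept its call in all 17 settings.

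All 10 ubiquitin ligases, deubiquitinases and phosphatases were tested, and 2 rose and 2 fell, with log2 fold changes between -0.25 and 0.33 over the group. That is 40%, about the 40.7% of all genes tested. One of those that fell, the phosphatase *Ppm1a*, named after its values were seen (limma, adjusted p = 0.0454), lost its call in 11 of 17 settings. Among these were the removal of each library in turn, with adjusted p from limma between 0.0528 without WT 2 and 0.136 without WT 1, and scaling to the same sum, with 0.199. The other called genes of the group, also named after their values were seen, kept their calls in all 17 settings. They were *Nedd4l* (log2 fold change -0.25), *Usp11* (0.33) and *Rnf111* (0.20), with limma adjusted p of 0.00268, 0.000613 and 0.00339. *Smurf2*, a ligase that removes receptors and SMADs, had the highest mean normalized count of the group. Its normalized counts were 27642, 35692 and 27884 in WT and 34623, 34226 and 32452 in UTX TCD libraries. WT 2 stood above the other WT libraries, and the adjusted p from limma was 0.188 with it and 0.00204 without it. Per kb of exon, *Usp4* stood higher than *Smurf2*, at 6860 against 5583 in WT and 6854 against 6200 in UTX TCD cells. Of 4 genes of the TAK1 branch, which does not use SMADs, 1 rose, *Traf6*, named after its values were seen (limma, adjusted p = 0.0113), and its adjusted p from limma was 0.0559 without WT 1 and 0.0580 without UTX TCD 2. The most abundant of them, *Tab2*, had 41475, 39339 and 40622 normalized counts in WT and 40140, 39882 and 37820 in UTX TCD libraries, with overlap (limma, adjusted p = 0.456).

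**Figure D2:**
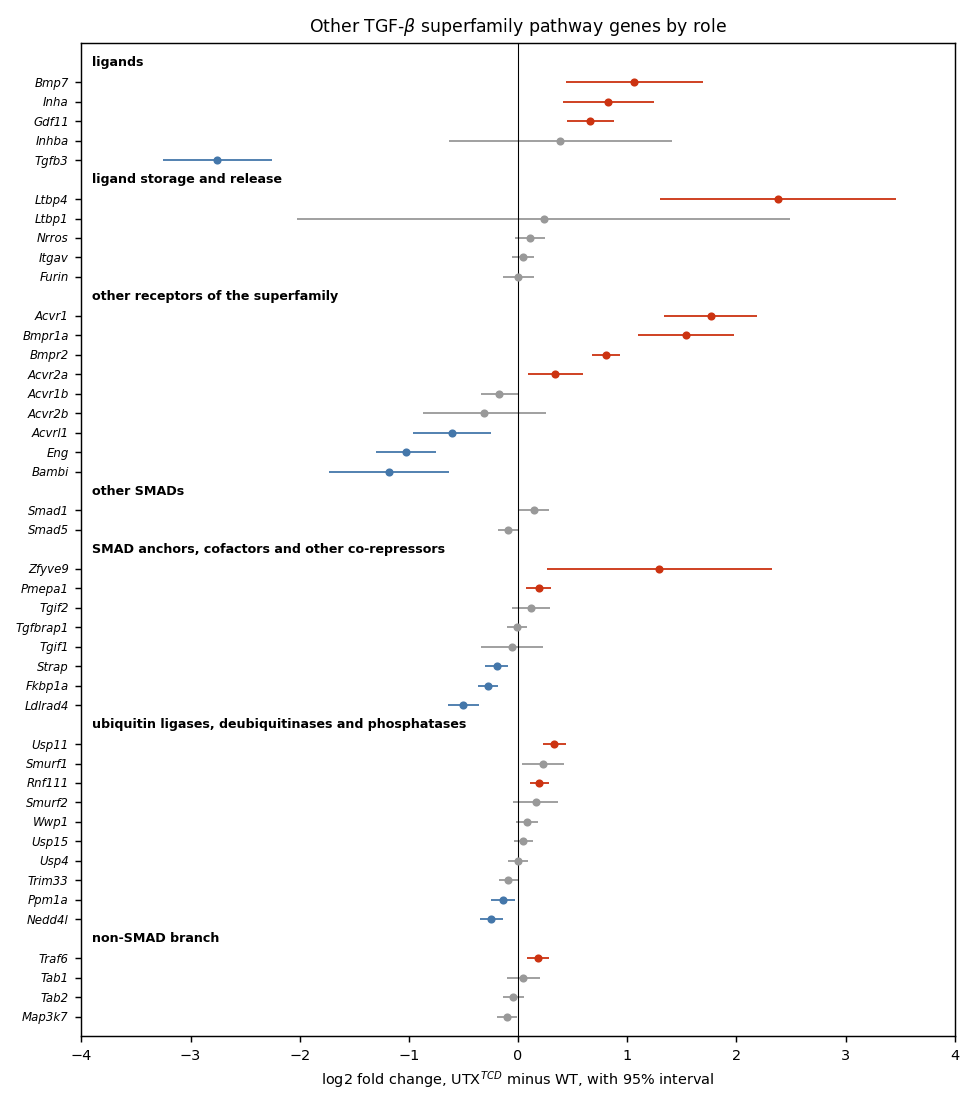
log2 fold change of UTX TCD against WT (horizontal axis) with its 95% interval from limma for the 43 pathway genes tested, grouped by role. Red marks genes that rose, blue genes that fell and grey those that did not pass an adjusted p under 0.05. *Ltbp4* at 2.38 and *Tgfb3* at -2.75 lie farthest from 0.

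Genes that TGF-β is known to raise or to lower were listed as readouts, and counts are given without a test of the lists. Of 17 listed, 14 were tested and 9 changed, 5 higher and 4 lower, which is 64.3% beside 40.7% of all genes tested, 20.2% higher and 20.5% lower. In the list of genes that TGF-β raises, 6 of 8 were tested, 2 rose and 2 fell, 66.7% of those tested. *Itgae*, the CD103 integrin chain, fell from 61194, 65163 and 64576 to 14860, 15948 and 14710 normalized counts (log2 fold change -2.07 ± 0.0473, SE; limma, adjusted p = 1.88e-08). *Ldlrad4* also fell, as given above. *Cdkn1a*, the p21 cell cycle inhibitor, rose from 29.7, 45.4 and 29.7 to 403, 305 and 435 (log2 fold change 3.42 ± 0.232, SE; limma, adjusted p = 9.19e-06). *Pmepa1*, a feedback inhibitor of SMAD activation, rose from 5171, 5418 and 5506 to 5954, 6383 and 6011 (limma, adjusted p = 0.0151). The adjusted p of *Pmepa1* from limma was 0.0726 without WT 1 and 0.0756 without UTX TCD 2. *Smad7* and *Skil* did not pass the test, and *Cdkn2b* was too low to be tested. Of the 4 feedback inhibitors in this list, *Ldlrad4* fell, *Pmepa1* rose, and *Smad7* and *Skil* were not called. Differences between these genes were not tested.

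In the list of genes that TGF-β lowers in T cells, 8 of 9 were tested, 3 rose and 2 fell, which is 62.5% beside the same 40.7% of all genes. The transcription factor *Tbx21* (T-bet) rose from 646, 877 and 589 to 1404, 1420 and 1872 normalized counts (log2 fold change 1.16 ± 0.163, SE; limma, adjusted p = 0.00057). *Eomes*, its relative, rose from 13370, 15314 and 13176 to 19100, 19086 and 26829 (log2 fold change 0.62, limma adjusted p = 0.00388). *Myc* rose from 14861, 17382 and 14211 to 18805, 19107 and 21076 (log2 fold change 0.35, limma adjusted p = 0.00643).

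Granzyme genes went the other way. *Gzma* fell from 235, 195 and 211 to 103, 90.5 and 113 normalized counts (log2 fold change -1.06, limma adjusted p = 0.00104). *Gzmb* fell from 539, 407 and 538 to 355, 366 and 338 (log2 fold change -0.47, limma adjusted p = 0.0217). The *Gzmb* call was lost without WT 1, WT 3 or UTX TCD 2, with adjusted p from limma of 0.0944, 0.0800 and 0.0501. *Prf1* (11172, 10322 and 11680 against 11706, 12095 and 12357), *Fasl* (12.9, 13.8 and 6.10 against 29.2, 12.0 and 36.1) and *Ifng* (10.9, 20.7 and 32.8 against 6.75, 10.4 and 31.7) did not pass the test, and *Il2* was too low. The adjusted p of *Prf1* from limma was 0.0120 with the libraries scaled to the same sum and 0.0497 without WT 3, and without UTX TCD 2 that of *Fasl* was 0.0373.

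Markers were summed per library to check the label and to look for other cells that express TGF-β receptors. The 8 genes of CD8+ T cells and the sort summed to 863398, 839036 and 820054 normalized counts in WT 1, 2 and 3 and to 883740, 846487 and 795176 in UTX TCD 1, 2 and 3, led by *Cd8a*. All 8 were tested, and 2 rose and 2 fell, which is 50% beside 40.7% of all genes tested, 20.2% higher and 20.5% lower. *Cd8b1*, the CD8 β chain, fell from 148808, 138851 and 136749 to 121688, 111349 and 95740 (log2 fold change -0.37, limma adjusted p = 0.00634), a call kept in all 17 settings. *Cd3e* (log2 fold change 0.17, limma adjusted p = 0.0414) and *Cd44* (log2 fold change 0.17, limma adjusted p = 0.0322) rose. Both calls were lost in limma without the trend, *Cd3e* with any library but UTX TCD 3 left out (adjusted p between 0.0548 without WT 1 and 0.155 without UTX TCD 1) and *Cd44* with any library but UTX TCD 2 left out (adjusted p between 0.0530 without WT 1 and 0.102 without WT 3). *Slamf6*, which encodes the sort marker Ly108, had 27732, 34096 and 23305 in WT and 36665, 30980 and 35425 in UTX TCD libraries, with overlap (limma, adjusted p = 0.0890). Without WT 2, the highest WT library, its adjusted p from limma was 0.00921. No gene of the list was at 0 in all libraries, and *Tcf7*, the TCF1 gene that marks progenitors, had 244276, 234809 and 227810 in WT and 229604, 220872 and 221558 in UTX TCD libraries. The sort gene *Cxcr6* fell from 12757, 9619 and 13724 to 5286, 5994 and 5695 (limma, adjusted p = 0.000131), and *Entpd1*, which encodes CD39, had at most 29.6 in any library. The part of *Cxcr6*-expressing cells in the differences above was not tested. Whether *Cxcr6* fell within the sorted progenitors or through fewer cells that express it was not tested either.

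The other lists were much lower. The 4 genes of CD4+ and regulatory T cells summed to 1216, 1203 and 1208 in WT and 1039, 1061 and 1341 in UTX TCD libraries, led by *Ctla4*. All 4 were tested, and 2 fell, 50% beside 40.7% of all genes. *Foxp3* of regulatory T cells had 317, 235 and 272 in WT and 306, 263 and 280 in UTX TCD libraries, with overlap (limma, adjusted p = 0.809). *Ctla4* overlapped as well (limma, adjusted p = 0.999). *Zbtb7b*, which directs T cells to the CD4 lineage, fell from 68.4, 34.6 and 86.2 to 9.0, 18.4 and 22.9 (3.59-fold lower, limma adjusted p = 0.00950). *Cd4* itself fell from 90.1, 104 and 83.1 to 58.5, 68.1 and 41.3 (limma, adjusted p = 0.0384), but the call was lost in 8 of 17 settings, including each library left out except UTX TCD 2 (adjusted p from limma between 0.0619 without UTX TCD 1 and 0.101 without WT 2). The 7 myeloid genes summed to 844, 839 and 682 in WT and 1059, 802 and 985 in UTX TCD libraries, led by *Cd68*. Of the 5 tested, 1 rose and 2 fell, or 60%. *Lyz2*, with a mean of 59.5 in both genotypes, was not called (limma, adjusted p = 0.877). Nor was *Fcer1g*, with means of 15.2 in WT and 12.3 in UTX TCD libraries (limma, adjusted p = 0.531). *Adgre1* and *Spi1* were too low to be tested. *Itgax*, the CD11c gene of dendritic cells, fell from 48.5, 24.7 and 55.7 to 0, 0 and 4.42 (limma, adjusted p = 0.00103), and *Csf1r* of macrophages fell from 27.7, 25.7 and 19.1 to 4.50, 5.61 and 8.11 (3.60-fold lower, limma adjusted p = 0.00496). *Cd68* rose (limma, adjusted p = 0.0377), a call lost in limma without the trend and with any library but UTX TCD 2 left out (adjusted p between 0.0529 without WT 1 and 0.120 without WT 3).

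The 6 B cell genes summed to 114598, 97129 and 106581 in WT and 96060, 90736 and 82282 in UTX TCD libraries, nearly all from *Ighm*. Of the 5 tested, 1 rose and 2 fell, which is 60% beside 40.7% of all genes. *Cd79b*, a chain of the B cell receptor complex, fell from 2502, 1930 and 2465 to 648, 633 and 470 (3.95-fold lower, limma adjusted p = 1.47e-05). *Ms4a1*, which encodes CD20, went the other way, from 5.94, 19.8 and 8.39 to 20.2, 29.6 and 73.0 (limma, adjusted p = 0.0367). The adjusted p of *Ms4a1* from limma was 0.0831 without the trend, 0.119 without WT 1, 0.0889 without WT 3, 0.0681 without UTX TCD 2 and 0.112 without UTX TCD 3. *Ighm* fell (limma, adjusted p = 0.0402), with an adjusted p from limma of 0.0994 at the same sum, 0.111 without the trend, 0.146 without WT 1, 0.0890 without WT 3, 0.0824 without UTX TCD 2 and 0.112 without UTX TCD 3. The 8 genes of platelets, stroma and endothelium summed to 32513, 30348 and 32693 in WT and 38501, 38596 and 34433 in UTX TCD libraries, led by *Pecam1*, which T cells also express and which rose as 1 of 5 tested, or 20% (limma, adjusted p = 0.0114, and 0.0517 without UTX TCD 2). Within that list *Ppbp* was at 0 in every library, *Pf4* had 1 read in WT 1 only, and *Cdh5* of endothelium was at 0 in all 3 UTX TCD libraries against 24.8, 21.7 and 9.91 in WT. The stromal genes *Col1a1*, *Col3a1* and *Pdgfrb* averaged 390, 278 and 143 normalized counts in WT and 456, 367 and 172 in UTX TCD libraries. The platelet gene *Itga2b* averaged 399 in WT and 394 in UTX TCD libraries. None of these stromal and platelet averages came with a call, and the libraries overlapped between the genotypes. *Eng* and *Acvrl1*, which endothelium also expresses, fell as given above, and *Cdh5* was too low to be tested. The part of B, CD4+, myeloid, stromal and endothelial cells and of platelets in the differences above was not tested.

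ATAC-seq measures how accessible chromatin is to a transposase. The deposited table lists only peaks with an FDR of at most 0.05 in the authors' comparison, with the authors' mean log2 read concentration per genotype and no value per library, so differences of those means are given without an error or a test, and a peak that is not listed may be unchanged. Differences are UTX TCD minus WT, and positions are in mm10, the same assembly as GRCm38. Each peak is assigned to a gene by the nearest transcription start. All 10 genes had at least 1 listed peak. Of their 45 peaks, 28 were more accessible in UTX TCD cells and 17 less accessible, which is 62.2% higher beside 68.8% of all listed peaks. By annotation 31 lay in introns, 12 between genes, 1 in an exon and 1 in a 3' UTR, and none was annotated to a promoter, whereas 2621 of all listed peaks were. Of the 45 peaks, 1 lay within 1 kb of a transcription start, in *Ski*, and 8 within 10 kb.

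*Tgfbr2* had the most peaks, and all 11 were more accessible in UTX TCD cells, by 0.33 to 1.64 on the log2 scale. The strongest, at chr9:116101886-116102286 in intron 6 of 7, went from an authors' mean of 7.88 in WT to 9.53, a 3.13-fold gain. The next 3 in size lay within a few kb of it, at chr9:116105147-116105547, chr9:116106529-116106929 and chr9:116107369-116107769 in intron 5, with gains of 1.46, 1.11 and 1.16. These 4 peaks lie 73.3 to 67.8 kb inside the gene. The 4 peaks of intron 1, which had high means in WT already, gained 0.33 to 0.63. Another 2 lay past the 3' end of the gene, 1 of them in the last intron of *Gadl1*.

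*Tgfbr1* showed the reverse, with 4 of 4 peaks less accessible. All lay upstream of the gene, 30.7 to 65.2 kb from its start, and 2 of them in introns 22 and 37 of the neighbouring *Col15a1*. The strongest, between *Col15a1* and *Tgfbr1*, went from 7.45 to 5.91, a difference of -1.54. *Col15a1* itself, looked up after the peaks were seen, was a low gene with a mean of 60.5 normalized counts in WT cells and 38.6 in UTX TCD cells (log2 fold change -0.64, limma adjusted p = 0.0452).

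*Tgfbr3* had 6 peaks. The 5 inside the gene, in introns 1, 2 and 3, were all less accessible, by -1.49 to -0.56, led by chr5:107213306-107213706 in intron 3 of 16, which went from 8.54 to 7.05. The sixth lay 13.8 kb upstream and was more accessible by 0.84. Set beside the transcripts, *Tgfbr2* was up with 11 of 11 peaks up, *Tgfbr1* down with 4 of 4 down and *Tgfbr3* down with 5 of 6 down, while *Smad4* was down with its 1 peak up, *Ski* down with 3 of 4 up and *Smad3* up with 5 of 9 up. This is a description of the 6 called genes, and 68.8% of all listed peaks were up.

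*Smad3* carried peaks of both signs, arranged by position. Its 9 peaks included 7 in intron 1. The 4 farthest into the intron, 25.1 to 49.5 kb from the start, were all less accessible, by -0.76, -0.95, -1.18 and -1.62 in order of distance. The 3 nearer ones, at 3.0, 17.3 and 20.3 kb, were more accessible by 0.35, 0.44 and 0.32, as was a peak 1.2 kb upstream by 0.33 and one 96.1 kb upstream by 0.66. The strongest loss, at chr9:63708248-63708648, went from 8.48 to 6.86.

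The remaining SMADs and co-repressors had 1 to 5 listed peaks each. *Smad2*, whose transcript did not pass the test, had 5 peaks, all more accessible, led by chr18:76215798-76216198 25.7 kb upstream with a difference of 1.43. *Smad4*, whose transcript fell, had 1 peak, at chr18:73643106-73643506 in intron 8 of 9, that was more accessible by 0.82. *Ski* also fell and had 4 peaks in its first intron and first exon. Of these, 3 were more accessible, by 0.34 to 0.54, and the one with the largest difference, chr4:155187160-155187560 in intron 1, was less accessible by -0.57.

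*Smad7* had 3 peaks, 1 higher inside the gene at 0.34 and 2 lower downstream. The largest of them, at chr18:75432667-75433067, differed by -0.78 and lay in the last exon of the neighbouring *Ctif*. *Skil* had 1 peak, chr3:31084954-31085354, 9.9 kb upstream, with a difference of -0.66. *Tgfb1* had 1 peak, chr7:25689252-25689652 in intron 1 of 6, with a difference of 0.21 from a high authors' mean of 10.89 in WT.

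**Figure D3:**
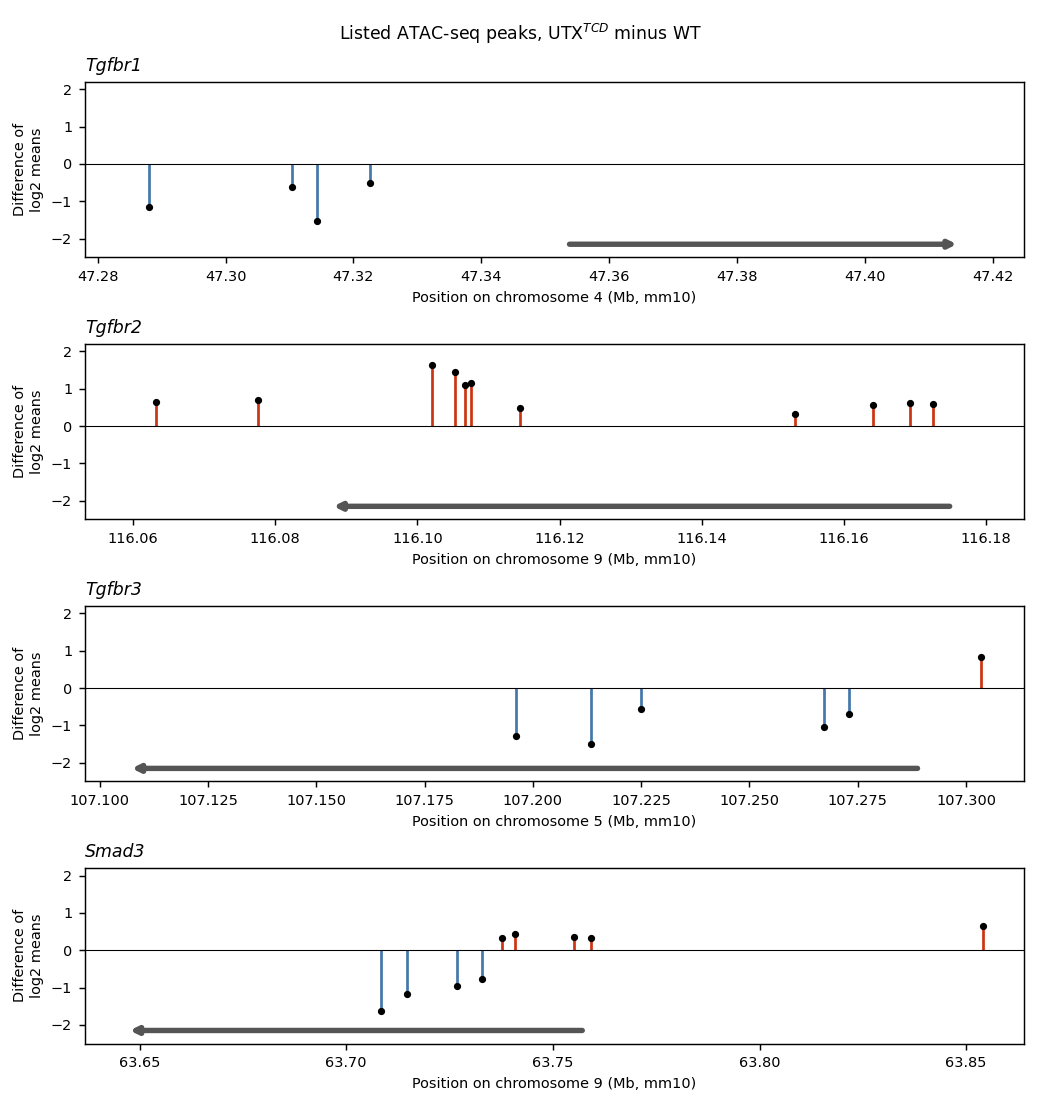
Difference of the authors' mean log2 concentration between UTX TCD and WT (vertical axis) for each listed ATAC-seq peak of *Tgfbr1*, *Tgfbr2*, *Tgfbr3* and *Smad3*, by position on the chromosome in Mb. Red stems are gains, blue stems losses and the grey arrow spans the gene from start to end. The 11 *Tgfbr2* peaks all gained, the 4 *Tgfbr1* peaks all lost, and the *Smad3* losses lie 25.1 to 49.5 kb from the start.

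In the wider pathway list, 41 of 55 genes had a listed peak, with 141 peaks in all. Of these, 94 were more accessible, 66.7% beside 68.8% of all listed peaks. *Tgfb3*, whose transcript fell most, had 6 peaks, all past its 3' end and in introns of other genes, 31.4 to 123.1 kb from its start. All 6 were less accessible, by -1.46 to -0.55. The 3 BMP receptor genes that rose had 5 peaks between them, all more accessible. These included promoter peaks, picked out after their values were seen, of *Acvr1* at chr2:58566802-58567202, with a difference of 1.00, and of *Bmpr1a* at chr14:34502649-34503049, with a difference of 0.70. *Eng* had no listed peak. The 2 peaks of *Acvrl1* and the 1 peak of *Bambi* were more accessible although both transcripts fell. *Ldlrad4* had 14 peaks, 11 of them less accessible, and the 3 peaks of *Itgae* were all less accessible.

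The strongest changed elements of *Tgfbr2*, *Tgfbr3* and *Smad3* are each shown by the middle 300 bases of the peak, so that the sequence behind each difference can be read. Sequences are the plus strand of the C57BL/6J reference (GRCm38.p6), not of NOD mice. Capitals mark matches on either strand to 5 short motifs: CAGAC for SMADs, TCAAAG for TCF1 and its relatives, TTCNNNGAA for STATs, TGANTCA for AP-1 and TGTGGT for RUNX factors. No 2 different motifs overlapped in these 3 windows.
Tgfbr2, chr9:116101937-116102236, intron 6, more accessible in UTX TCD: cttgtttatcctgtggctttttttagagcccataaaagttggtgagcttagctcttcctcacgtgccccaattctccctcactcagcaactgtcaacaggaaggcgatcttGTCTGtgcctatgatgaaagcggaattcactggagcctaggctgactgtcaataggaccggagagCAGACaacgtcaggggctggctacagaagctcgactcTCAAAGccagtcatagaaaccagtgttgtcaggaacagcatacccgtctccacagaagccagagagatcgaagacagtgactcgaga
Tgfbr3, chr5:107213357-107213656, intron 3, less accessible: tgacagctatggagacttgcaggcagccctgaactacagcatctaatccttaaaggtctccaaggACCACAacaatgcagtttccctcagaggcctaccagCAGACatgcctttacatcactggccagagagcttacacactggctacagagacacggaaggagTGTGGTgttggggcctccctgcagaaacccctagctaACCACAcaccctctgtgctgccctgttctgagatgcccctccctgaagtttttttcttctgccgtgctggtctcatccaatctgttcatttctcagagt
Smad3, chr9:63708299-63708598, intron 1, less accessible: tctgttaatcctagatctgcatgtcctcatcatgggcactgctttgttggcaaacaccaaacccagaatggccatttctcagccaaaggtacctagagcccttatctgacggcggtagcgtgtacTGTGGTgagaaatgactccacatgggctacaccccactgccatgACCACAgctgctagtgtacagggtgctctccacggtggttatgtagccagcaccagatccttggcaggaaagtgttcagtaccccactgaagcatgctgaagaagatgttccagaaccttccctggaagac

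The *Tgfbr2* window held 2 CAGAC matches and 1 TCAAAG match. The *Tgfbr3* window held 1 CAGAC and 3 TGTGGT matches, and the *Smad3* window 2 TGTGGT matches and none of the other motifs. Such short motifs are common. In the middle 300 bases of the 23908 listed peaks on assembled chromosomes, CAGAC occurred in 56.1%, TCAAAG in 25.1%, TTCNNNGAA in 8.82%, TGANTCA in 10.3% and TGTGGT in 34.4%. Among the 45 peaks of the 10 genes they occurred in 24, 8, 2, 4 and 18. TGTGGT was found in 43.4% of all less accessible peaks and 30.3% of all more accessible ones, and in 7 of 17 and 11 of 28 of the peaks of these genes.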

How the data were processed

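RNA-seq and ATAC-seq were each done on 3 WT and 3 UTX TCD samples, grouped by their titles. For RNA-seq the authors aligned reads to mm10 with HISAT2 2.2.1, counted them per gene with featureCounts and deposited a signal per gene and library, the count divided by a DESeq2 size factor. Annotation and strand setting are not given in the sources used here, so overlapping and antisense genes are uncertain. Dividing each library by its step gave whole reads for 100% of values (tolerance 0.05 reads). For ATAC-seq the authors trimmed, aligned with Bowtie2, called peaks with MACS2, compared genotypes with DiffBind, annotated with HOMER and deposited the log2 mean concentration per genotype of peaks with an FDR of at most 0.05. Whether reads were shifted for the transposase is not given in the sources used here. Both tables also hold the authors' own comparison (log2 fold changes with standard errors, p-values and adjusted p or FDR), which was not used beyond checking the listing threshold of the peaks.

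The 14459 of 25860 genes whose normalized counts averaged 10 or more were fitted by limma 3.58.1 (R 4.3.3, with the trend) to genotype alone, after taking log2 of the normalized count plus 1. This scale understates changes of low genes. On the recovered reads, edgeR 4.0.16 called 5865 genes and DESeq2 1.42.0 called 5958, against 5887 with limma. The script was tested on simulated data of this comparison with 200 of 14459 genes changed. It recovered 52.4% of genes changed by a log2 fold of 0.5, 79.4% at 1 and 94.6% at 2, with 7 false calls, so a small change can be missed. An exact permutation test of 3 against 3 cannot give a two-sided p under 0.10, so none was used. No libraries agreed within sampling noise. Intervals are at 95%. Gene positions, exon lengths and sequences are from RefSeq (GRCm38.p6), and all 112 listed genes were matched. The authors' distances to the start were within 10 bases of RefSeq's for 98.4% of 22890 peaks.

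The members and lists were chosen with earlier results of these data known, so no test was made over a list. Named are the 10 genes, pathway genes past both limits and the pathway gene of each role with the highest mean normalized count. Also named are target genes, cell type markers and, for each of the 10 genes, the peak with the largest difference. Alternatives were other pseudocounts, filters, scalings and tools, the replicate block, each library left out, a fold limit, and limits on peak size and distance. Some items are not reported here.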

Additional observations from a re-analysis of the deposited data

How the results depend on the processing

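The 91 genes made up of *Kdm6a* and the tested genes of the lists were tested again under up to 17 settings. Of 1534 values, 1437 kept their call, 80 lost it and 17 gained it, and none that was called reversed. *Col15a1* was not among these genes. With an absolute log2 fold change over 0.5 as well, the changed genes were 2538 over all genes against 5887, 0 of the 10 core genes against 6, and 13 of the pathway genes against 22. The limit itself removes the smaller changes. Limma without the trend called 4 of the 10 core genes, all lower. Leaving out 1 library gave 4324 to 5734 changed genes over the table, 5 to 6 of the 10, 15 to 24 of the pathway genes and 7 to 9 of the target genes. Replicate numbers did not pair the libraries: deviations of same-numbered libraries correlated at 0.305, -0.20 and 0.0897, and the replicate block gave 5702 changed genes over the table, 6 of the 10, 20 pathway genes and 9 target genes. Libraries did not each correlate best with their own number. Of the 45 peaks, 29 lay within 50 kb of a transcription start and 8 within 10 kb, beside 18771 and 8964 of all listed peaks. Within 10 kb, 7 of the 8 were more accessible, and the share among all listed peaks at that distance was not counted. With an absolute difference over 0.5, 17 of the 45 were more and 17 less accessible, beside 11809 more and 5694 less of all listed peaks. Peaks have no value per library, so no error was estimated for them here. Low genes such as *Zfyve9* and *Ltbp4* rest on few reads per library.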
